A study of Rattus norvegicus with 8 samples.

Results

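The genes described here encode the ligands and receptors of axon guidance, measured in the saphenous artery of the rat at 2 ages. They were chosen by symbol as the semaphorins of classes 3 to 7, plexins, neuropilins, ephrins, Eph receptors, slits, Robo receptors, netrins, Unc5 receptors and Dcc. The rule found 66 of 19239 measured genes, or 66 of the 16592 that carried a listed symbol. One of them, Ntn4, was listed under an older locus name and was matched through its Entrez identifier. Another, Unc50, shares its first letters with the Unc5 receptors but encodes an unrelated Golgi membrane protein, so 65 of the 66 are guidance genes. Counts by family cover these matched genes and not always the whole family. No row was matched for Sema6b, Ephb4 or Efna3. The adult group held 4 samples, each made from 2 saphenous arteries of 1 male Wistar rat aged 2 to 3 months. The young group held 4 samples, each pooled from 4 saphenous arteries of 2 male Wistar rats aged 10 to 12 days. The labels name no treatment and no engineered allele, and each sample was hybridised to 1 Affymetrix rat gene array. The saphenous artery is a muscular artery of the leg, and the whole vessel was used, so that every value is an average over all of its cell types.

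Axon guidance molecules were named for steering growing nerve fibres, and the same ligands and receptors act between the cells of blood vessels. Secreted class 3 semaphorins bind neuropilins, which signal together with plexins, whereas the membrane-bound semaphorins of the other vertebrate classes mostly bind plexins directly. Ephrins stay on the cell surface and act on Eph receptor tyrosine kinases of the neighbouring cell, slits act on Robo receptors, and netrins act on Dcc and the Unc5 receptors. In vessels these systems are known from endothelial sprouting, from the separation of arteries and veins and from the contact between endothelium and mural cells.

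Values are log2 expression as deposited, so a difference of 1 is a doubling, and every difference below is adult minus young. A gene was called higher or lower where limma gave a Benjamini-Hochberg adjusted p below 0.01 over all 19239 genes. The 8 arrays shared 1 distribution after the authors' quantile normalization, with a lowest value of 6.8, a median of 7.29 and a highest value of 13.82. A shift of all genes between the ages would therefore not be visible, and differences of genes near the lowest value are compressed. The identity of the tissue was checked on markers of smooth muscle cells, whose mean level was 12.43 to 12.57 on the adult arrays and 11.78 to 11.89 on the young arrays. Markers of neurons and their fibres were close to the floor, at 7.10 to 7.17 on the adult arrays and 7.14 to 7.16 on the young arrays. The noradrenergic markers Th, Dbh and Slc6a2 differed between the ages by 0.02, -0.01 and 0.01 and were not called. They lay near the floor, where a difference would be compressed, so a change of the nerve supply could not be judged from them. In the same neuronal list Tubb3 (-0.30) and Uchl1 (-0.26) were called lower and Gap43 (0.10) higher.

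Most guidance genes that differed were lower in adult arteries. Of the 66 genes, 35 were called lower in adult arteries (53.0%), where 16% of all genes tested were called lower. Only 7 were called higher (10.6%), against 16.7% of all genes tested, and 24 passed the threshold in neither direction, with differences between -0.10 and 0.24. The adult and young values did not overlap in 48 of the 66 genes (72.7%), 37 of them lower and 11 higher in adult arteries, against 46% of all genes tested. The median difference was -0.07 over the 66 genes and 0.00 over all genes. A fall of at least 0.5 that passed the threshold was seen in 13 genes (19.7%), against 4.7% of all genes tested. These 13 were Sema6a, Sema3d, Sema3c, Epha3, Ephb3, Plxnd1, Ephb2, Nrp2, Sema5a, Sema6d, Sema5b, Nrp1 and Efna1. The only called rise of that size was Ntn4, against 4.72% of all genes tested. Ligands and receptors both took part: 19 of 33 ligands were lower and 4 higher (median -0.14), and 16 of 32 receptors were lower and 2 higher (median -0.06). In whole vessels, fewer cells of a type and less RNA per cell cannot be told apart.

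**Figure D1:**
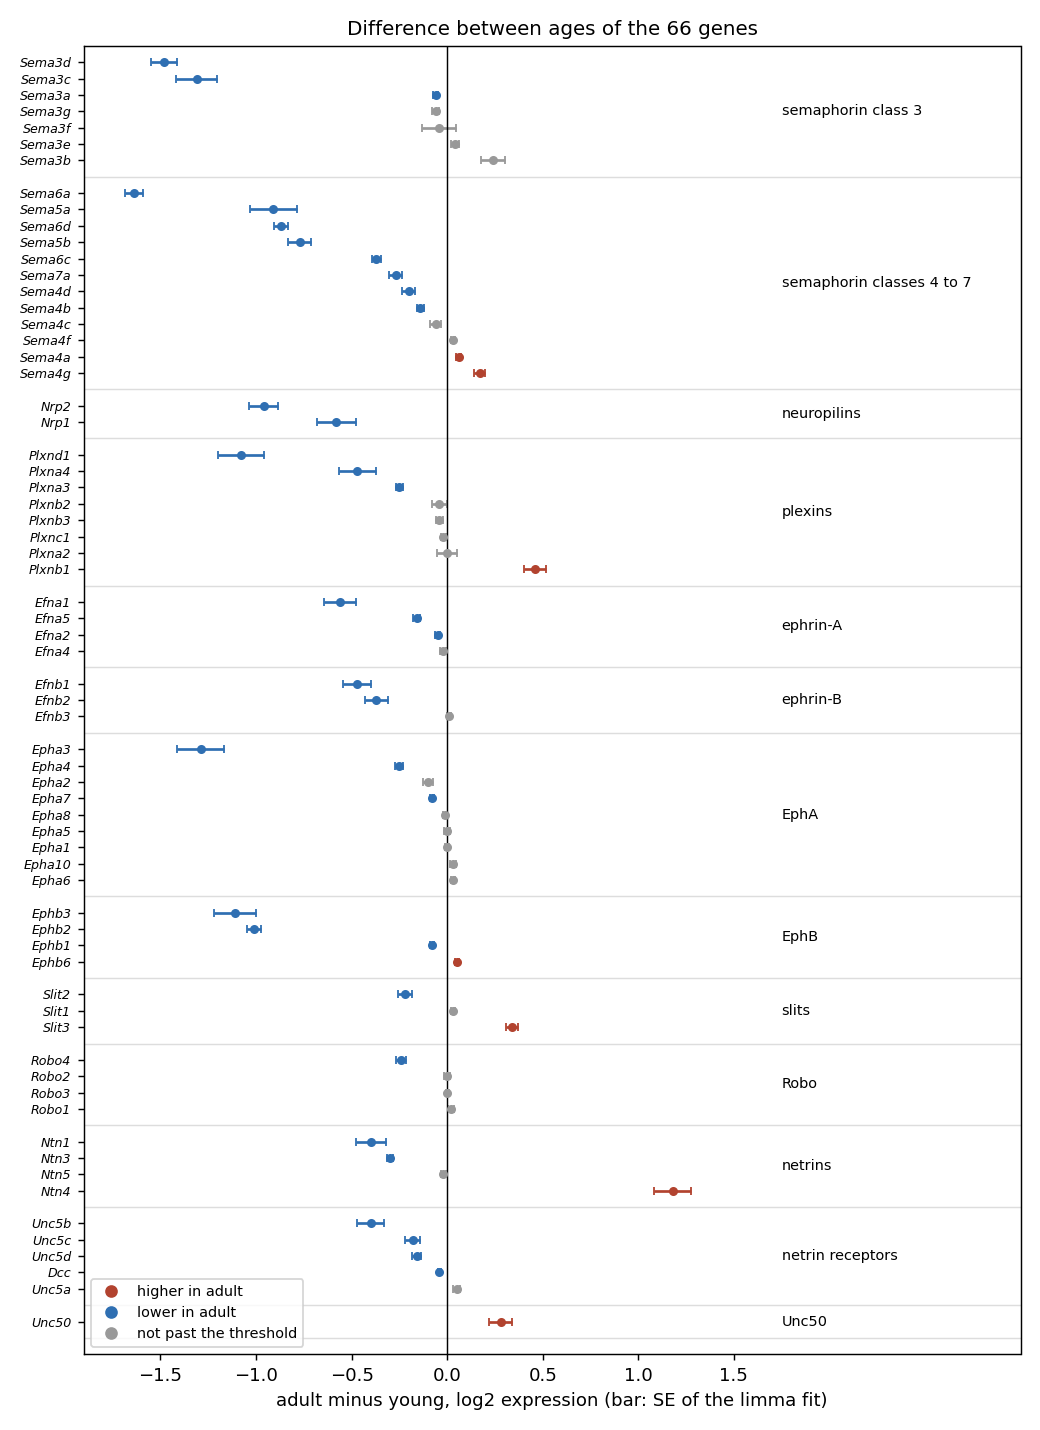
Difference in log2 expression (adult minus young, horizontal axis) of each of the 66 genes, grouped by family, with bars for the standard error of the limma fit. Red points were called higher in adult arteries (7 genes), blue points lower (35 genes) and grey points neither (24 genes). Sema6a lies farthest to the left at -1.64 and Ntn4 farthest to the right at 1.18.

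Markers of several cell types moved between the same samples. Of all genes tested, 16% were called lower and 16.7% higher in adult arteries. The mean level of 13 endothelial markers was 8.10 to 8.41 on the adult arrays and 8.89 to 9.29 on the young arrays, and 9 of the 13 were called lower in adult arteries, none higher. Cdh5, which encodes the cadherin of endothelial junctions, averaged 8.24 ± 0.22 in adult and 10.59 ± 0.29 in young arteries (SD, n = 4 each). Robo4 belongs both to that list and to the 66 genes. All 7 lymphatic endothelial markers were lower in adult arteries, with a mean level of 7.15 to 7.42 on the adult and 8.19 to 8.66 on the young arrays. All 11 proliferation genes were lower as well, at 7.05 to 7.07 on the adult and 8.14 to 8.34 on the young arrays. Fibroblast markers were split, with 3 of 11 higher and 7 lower, and their mean level was 10.95 to 11.13 on the adult and 11.31 to 11.37 on the young arrays. Markers of smooth muscle (7 of 9) and of macrophages (10 of 11) were called higher in adult arteries, none lower, and the macrophage markers lay at 7.89 to 8.22 on the adult and 7.35 to 7.46 on the young arrays. Among Schwann cell markers 1 of 12 was higher and 2 were lower, at 7.74 to 7.84 on the adult and 7.91 to 7.97 on the young arrays. Among neuronal markers 1 of 14 was higher and 2 were lower. The lower shares of the Schwann cell and neuronal lists, 16.7% and 14.3%, were near that of all genes tested. Their higher shares, 8.33% and 7.14%, were below it. Of 16 skeletal muscle markers 1 was called lower, but 15 had a lower mean in adult arteries (median -0.32), against 9128 of all 19239 genes. Their mean level was 7.52 to 7.67 on the adult arrays. It was 7.52 on young replicate 2 and 7.91 to 8.15 on the other young arrays. Adipocyte markers, with 1 of 10 called higher, lay at 7.13 to 7.22 on the adult and 7.17 to 7.35 on the young arrays. The part of these shifts in the differences of guidance genes was not tested. Young replicate 4 had the lowest endothelial mean of its group (8.89, against 9.23 to 9.29), and without it 34 guidance genes were called lower and 5 higher. This does not bear on that part, since the remaining young arrays lay farther above the adult arrays in endothelial markers.

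Among the secreted class 3 semaphorins, 3 of 7 were lower in adult arteries (42.9%, against 16% of all genes tested). None was higher (median -0.06), and the falls were concentrated in Sema3c and Sema3d. Sema3d, a ligand that acts through neuropilins, had 7.96, 8.02, 7.87 and 7.79 on the adult arrays and 9.37, 9.45, 9.24 and 9.49 on the young arrays. All adult values lay more than 1 log2 unit below all young values, and the difference was -1.48 (SE 0.068, adjusted p = 6.75e-06), so that adult arteries had 0.36 times the young level. Sema3c, known for its part in forming the outflow tract of the mouse heart, had 9.32, 9.23, 8.89 and 8.94 in adult arteries, against 10.32, 10.32, 10.44 and 10.53 in young arteries. Its groups were also clearly apart, although the adult arrays spread over a wider range than the young ones, and the difference was -1.31 (SE 0.108, adjusted p = 7.16e-05). Sema3a, the classical repellent of growing axons, was near the floor at 6.95 ± 0.01 in adult and 7.02 ± 0.02 in young arteries (SD, n = 4 each). Its difference of -0.06 passed the threshold with all arrays (adjusted p = 0.00491). It did not pass without adult replicates 1, 2, 3 or 4 or young replicate 1, each left out alone, where the adjusted p was 0.0118 to 0.0173. Sema3f was well above the floor and had 9.64, 9.61, 9.33 and 9.31 in adult arteries, against 9.53, 9.49, 9.60 and 9.43 in young arteries. The 2 groups overlapped, and the difference was -0.04 (SE 0.089, adjusted p = 0.751). Sema3b had 8.13, 8.40, 8.22 and 8.29 on the adult arrays and 8.09, 7.94, 7.99 and 8.05 on the young arrays, a difference of 0.24 that missed the threshold (adjusted p = 0.0138) although every adult value was above every young one. Without adult replicate 1 the adjusted p of Sema3b was 0.00577. The remaining members, Sema3e and Sema3g, differed by 0.04 and -0.06 and were not called.

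Some class 3 genes lie close together on the genome, and the close pairs given here did not share their differences. In the GRCr8 annotation Sema3a and Sema3d are neighbours with 0 protein-coding genes between them, and they differed by -0.06 and -1.48. Sema3c and Sema3e have 4 protein-coding genes between them and differed by -1.31 and 0.04, and Sema3b and Sema3f, with 3 between them, differed by 0.24 and -0.04. Sema3c and Sema3d, which both fell, also lie on the same chromosome but were not compared as a close pair.

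Membrane-bound semaphorins were lower as well, led by class 6. Of the 12 members of classes 4 to 7, 8 were lower in adult arteries (66.7%, against 16% of all genes tested). Another 2 were higher (16.7%, the same share as over all genes). The median was -0.24, and 4 of the 8 fell by at least 0.5. All 3 measured class 6 members were called lower (median -0.87). Sema6a, a transmembrane ligand of A-type plexins, had 7.37, 7.23, 7.35 and 7.25 on the adult arrays and 8.97, 8.93, 9.02 and 8.85 on the young arrays. The adult values lay near the array median and the young values far above it, with a difference of -1.64 (SE 0.047, adjusted p = 1.08e-06), or 0.32 times the young level. This was the largest difference of the 66 genes. Sema6d, of the same class and known from cardiac morphogenesis in the chick, had 7.79, 7.74, 7.66 and 7.77 in adult arteries, against 8.65, 8.60, 8.67 and 8.54 in young arteries. Each group was tight, and the difference was -0.87 (SE 0.038, adjusted p = 5.44e-06). Sema6c differed by -0.37 (SE 0.025, adjusted p = 3.24e-05).

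Both class 5 semaphorins, which carry thrombospondin repeats beside the semaphorin domain, were lower in adult arteries. Sema5a had 10.22, 10.01, 9.75 and 10.23 on the adult arrays and 10.90, 11.18, 10.86 and 10.91 on the young arrays. Its level was high at both ages without overlap, and the difference was -0.91 (SE 0.123, adjusted p = 0.000781). Sema5b had 7.20, 7.16, 7.21 and 7.24 in adult arteries, against 8.15, 7.96, 7.94 and 7.85 in young arteries. Its adult values were all below the array median of 7.29, and the difference was -0.77 (SE 0.060, adjusted p = 5.65e-05). Sema7a, which is anchored in the membrane by a lipid and also acts in immune cells, differed by -0.27 (SE 0.034, adjusted p = 0.00054). Class 4 was divided: of its 6 members Sema4d (-0.20) and Sema4b (-0.14) were lower, Sema4g (0.17) and Sema4a (0.06) were higher, and Sema4c (-0.06) and Sema4f (0.03) were not called. All 4 calls were lost when arrays were centred on ribosomal protein genes. The rises were then larger, 0.20 for Sema4g and 0.10 for Sema4a, and the falls smaller, -0.17 for Sema4d and -0.10 for Sema4b. Without paralogues among the ribosomal protein genes the difference of Sema4g was 0.05 and that of Sema4a turned to -0.05. Sema4d is the ligand of plexin-B1, whose gene moved in the other direction.

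Some receptors of the semaphorins were lower too. Both neuropilins were lower in adult arteries (median -0.77), and of 8 plexins 3 were lower, 1 was higher and 4 were not called (median -0.04). These were 37.5% lower and 12.5% higher among the plexins, against 16% and 16.7% of all genes tested. Nrp2, a co-receptor of class 3 semaphorins and of the lymphatic growth factor VEGF-C, had 7.41, 7.37, 7.51 and 7.32 on the adult arrays and 8.48, 8.48, 8.29 and 8.19 on the young arrays. The groups were apart, with a difference of -0.96 (SE 0.075, adjusted p = 5.65e-05). Nrp1, which also binds VEGF-A, had 9.35, 9.10, 9.25 and 9.22 in adult arteries, against 9.94, 10.00, 9.73 and 9.57 in young arteries. Its highest adult value and its lowest young value were 0.22 apart, the narrowest gap of the 13 genes with large falls, and the difference was -0.58 (SE 0.102, adjusted p = 0.00287).

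Plxnd1, the receptor of Sema3e that is known from endothelial cells of developing vessels, had 9.91, 9.62, 9.76 and 9.70 on the adult arrays and 11.04, 10.92, 10.83 and 10.50 on the young arrays. The young values were all above the adult ones, with young replicate 4 the lowest of its group, and the difference was -1.08 (SE 0.120, adjusted p = 0.000303). Without young replicate 4 the difference was -1.19. Plxna3 differed by -0.25 (SE 0.019, adjusted p = 5.35e-05) and Plxna4, a receptor of class 6 semaphorins, by -0.47 (SE 0.097, adjusted p = 0.00602). The call of Plxna4 was lost without any 1 of the arrays other than young replicate 4, with adjusted p of 0.0106 to 0.0199. The row of the Entrez identifier of Plxna1 carried no listed symbol and is not counted among the 66. It had 7.95, 7.86, 7.91 and 7.84 in adult arteries, against 8.29, 8.28, 8.31 and 8.42 in young arteries, a difference of -0.43 (SE 0.037, adjusted p = 8.11e-05). Plxnb1 was the only plexin called higher, at 9.45 ± 0.10 in adult and 9.00 ± 0.06 in young arteries (SD, n = 4 each), a difference of 0.46 (SE 0.056, adjusted p = 0.000469). Its relative Plxnb2 was expressed at both ages, at 9.79 ± 0.04 in adult and 9.83 ± 0.08 in young arteries, and differed by -0.04 (adjusted p = 0.462). Plxna2, Plxnb3 and Plxnc1 differed by -0.00, -0.04 and -0.02 and were not called, and Plxna2 turned to 0.03 with centring on ribosomal protein genes.

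**Figure D2:**
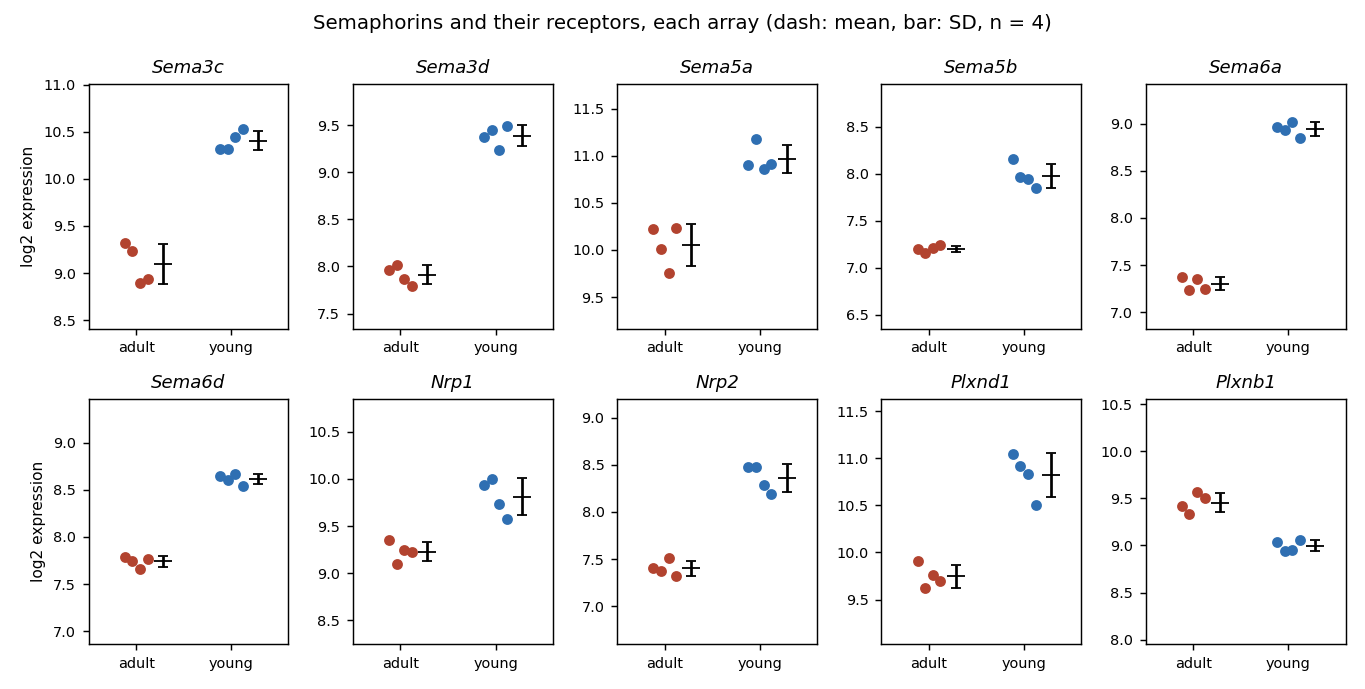
Log2 expression on each array for 6 semaphorins, both neuropilins and the plexins Plxnd1 and Plxnb1, with adult arteries (red) left of young arteries (blue). Dashes are means and bars the SD of 4 arrays, and every panel spans the same number of log2 units. No adult point reaches the young points in any panel, and Plxnb1 is the only one in which adult arteries lie above, at 9.45 against 9.00.

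Promoter sequences are shown for the ligands Sema3c and Sema3d and the receptors Nrp2 and Plxnd1, which all fell, and for Ntn4, which rose. They run from 250 bases before to 50 bases after the annotated start of each gene in RefSeq, 5′ to 3′ along the gene (build GRCr8). The windows are chr4:18699578-18699877 on the minus strand, chr4:23460922-23461221 on the minus strand, chr9:71617004-71617303 on the plus strand, chr4:150715138-150715437 on the minus strand and chr7:30073387-30073686 on the plus strand for the genes in that order. Capitals mark the motifs GGGCGG (GC box) and CCAAT on either strand, which do not overlap here.
Sema3c: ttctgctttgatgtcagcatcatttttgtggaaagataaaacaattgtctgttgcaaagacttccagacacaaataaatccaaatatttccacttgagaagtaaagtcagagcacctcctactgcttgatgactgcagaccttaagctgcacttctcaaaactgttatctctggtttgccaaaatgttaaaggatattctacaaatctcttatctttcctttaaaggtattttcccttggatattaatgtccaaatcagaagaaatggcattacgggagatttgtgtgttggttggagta
Sema3d: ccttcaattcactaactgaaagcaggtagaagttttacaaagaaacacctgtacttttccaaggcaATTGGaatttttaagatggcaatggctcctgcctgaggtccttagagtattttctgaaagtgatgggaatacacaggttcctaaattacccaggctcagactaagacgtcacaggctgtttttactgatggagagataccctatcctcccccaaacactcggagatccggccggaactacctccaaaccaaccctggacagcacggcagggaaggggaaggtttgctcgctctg
Nrp2: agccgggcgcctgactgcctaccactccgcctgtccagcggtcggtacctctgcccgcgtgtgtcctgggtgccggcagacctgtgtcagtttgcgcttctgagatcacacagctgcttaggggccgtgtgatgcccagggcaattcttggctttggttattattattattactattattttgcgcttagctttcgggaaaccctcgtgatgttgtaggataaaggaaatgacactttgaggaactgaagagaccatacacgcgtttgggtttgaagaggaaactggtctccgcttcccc
Plxnd1: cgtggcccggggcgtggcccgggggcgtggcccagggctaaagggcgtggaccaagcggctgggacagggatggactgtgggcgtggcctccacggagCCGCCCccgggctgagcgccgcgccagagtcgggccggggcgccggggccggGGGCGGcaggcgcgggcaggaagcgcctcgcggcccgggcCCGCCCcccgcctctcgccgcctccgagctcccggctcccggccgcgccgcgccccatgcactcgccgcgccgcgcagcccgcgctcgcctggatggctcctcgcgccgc
Ntn4: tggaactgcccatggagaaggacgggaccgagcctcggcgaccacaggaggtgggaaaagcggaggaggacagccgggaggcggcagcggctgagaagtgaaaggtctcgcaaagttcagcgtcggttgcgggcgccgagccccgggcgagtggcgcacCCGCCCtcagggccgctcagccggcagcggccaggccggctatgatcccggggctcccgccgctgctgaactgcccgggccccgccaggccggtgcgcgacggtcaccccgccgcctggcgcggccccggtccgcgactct
The Plxnd1 window held 3 GC boxes and 48 CG dinucleotides and the Ntn4 window 1 GC box and 38 CG dinucleotides. The windows of Sema3c, Sema3d and Nrp2 held 0 GC boxes, with 1, 6 and 16 CG dinucleotides. Sema3d had 1 CCAAT motif, on the reverse strand. Of the 66 genes 51 had a promoter in the table, and 29 of these (56.9%) held a GC box, against 34.9% of all 27457 promoters of this length. The share was 83.3% of the 6 promoters of genes called higher (5 promoters), 40% of the 25 of genes called lower (10 promoters) and 70% of the 20 of genes called in neither direction (14 promoters). CCAAT was found in 31.4% of the 51 promoters and in 37.7% of all promoters. TATAAA on either strand was in 0 of the 51 promoters and in 14.3% of all promoters. A match of letters is a description of the sequence, and binding was not measured.

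Eph receptors and ephrins showed the same direction, with the falls centred on 3 receptors. Of the 13 Eph receptors 6 were lower (46.2%) and 1 was higher (7.69%) in adult arteries (median -0.08). Of 7 ephrins 5 were lower (71.4%) and none was higher (median -0.16). Over all genes tested these shares were 16% lower and 16.7% higher. Epha3, a receptor of A-type ephrins known from the endocardial cushions of the mouse heart, had 8.17, 7.63, 7.68 and 7.67 on the adult arrays and 9.12, 9.14, 9.06 and 8.99 on the young arrays. Adult replicate 1 stood above the other adult arrays but below all young ones, and the difference was -1.29 (SE 0.122, adjusted p = 0.000139). Without adult replicate 1 it was -1.42. Ephb2, a receptor of B-type ephrins, had 8.26, 8.30, 8.28 and 8.27 in adult arteries, against 9.18, 9.33, 9.37 and 9.27 in young arteries. The adult values were almost identical, and the difference was -1.01 (SE 0.038, adjusted p = 3.15e-06), or 0.496 times the young level. Ephb3, of the same subfamily, had 8.12, 7.83, 7.57 and 7.66 on the adult arrays and 8.94, 8.89, 8.87 and 8.93 on the young arrays. Here the adult group was the wider one, and the difference was -1.11 (SE 0.112, adjusted p = 0.000191).

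The other Eph receptors moved little. Epha4 differed by -0.25, Epha7 by -0.08 and Ephb1 by -0.08, all called lower with group means between 6.93 and 7.33. Ephb6, which lacks kinase activity, was called higher at 7.47 ± 0.02 in adult and 7.41 ± 0.01 in young arteries (SD, n = 4 each), a difference of 0.05 that turned to -0.06 with centring on ribosomal protein genes without paralogues. Its adjusted p was 0.0051 with all arrays and 0.0113 to 0.017 without adult replicates 1, 2 or 4 or young replicates 2, 3 or 4, each left out alone. Epha2, the main receptor of ephrin-A1, differed by -0.10 and missed the threshold (adjusted p = 0.0118), whereas without young replicate 4 it differed by -0.13 (adjusted p = 0.00101). Epha1, Epha5, Epha6, Epha8 and Epha10 differed by -0.01 to 0.03 and were not called. Ephb2 and Epha8 have 3 protein-coding genes between them and differed by -1.01 and -0.01.

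Among the ligands of the A type, Efna1 had 7.54, 7.71, 7.75 and 7.62 on the adult arrays and 8.14, 8.30, 8.39 and 8.03 on the young arrays. The groups did not overlap, and the difference was -0.56 (SE 0.085, adjusted p = 0.00137). Efna4, with 1 protein-coding gene between it and Efna1, differed by -0.02 and was not called. Efna5 differed by -0.16 and Efna2 by -0.05, and both were called lower. The adjusted p of Efna2 was 0.00667 with all arrays and 0.0111 to 0.0216 when any 1 array other than adult replicate 4 was left out. Of the B type, Efnb2, known as a marker of arterial endothelium, had 8.48, 8.58, 8.48 and 8.39 in adult arteries, against 8.93, 8.96, 8.82 and 8.72 in young arteries. It was lower on every adult array, with a difference of -0.37 (SE 0.062, adjusted p = 0.00211). Efnb1 differed by -0.47 (SE 0.073, adjusted p = 0.00169), and Efnb3, near the floor, by 0.01.

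Netrins moved in both directions. Ntn4, a netrin of basement membranes that binds laminin, had 8.14, 8.44, 8.51 and 8.61 on the adult arrays and 7.27, 7.23, 7.29 and 7.19 on the young arrays. The young values lay at or just below the array median and all adult values far above it, with a difference of 1.18 (SE 0.095, adjusted p = 6.44e-05), or 2.27 times the young level. Ntn1, the secreted netrin that attracts or repels axons, moved in the opposite direction, with 8.81, 8.68, 8.49 and 8.72 in adult arteries, against 9.04, 9.07, 9.21 and 8.97 in young arteries. Its groups did not overlap, and the difference was -0.40 (SE 0.078, adjusted p = 0.00468). The call was lost without adult replicates 2 or 4 or young replicates 1, 2 or 3, each left out alone (adjusted p of 0.0117 to 0.0142). Ntn3 differed by -0.30 (SE 0.015, adjusted p = 9.73e-06), and Ntn5 by -0.02 and was not called.

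Of the 5 netrin receptors 4 were lower (80.0%, against 16% of all genes tested) and none was higher (median -0.16). Unc5b, known as the Unc5 receptor of endothelial cells, had 7.97, 7.94, 7.98 and 7.82 on the adult arrays and 8.29, 8.34, 8.17 and 8.51 on the young arrays. The groups were apart, and the difference was -0.40 (SE 0.072, adjusted p = 0.00325). Without adult replicate 2 or young replicate 2 the adjusted p was 0.0101 and 0.0107. Unc5d differed by -0.16 (adjusted p = 0.00135). Unc5c (-0.18) and Dcc (-0.04) lay below the array median at both ages and passed with all arrays at adjusted p of 0.00711 and 0.0051. Each lost the call in 7 of the 8 sets without 1 array, Unc5c in all but that without young replicate 4 (0.0128 to 0.0229) and Dcc in all but that without young replicate 2 (0.0102 to 0.0184). Unc5a differed by 0.05 and was not called. Neo1, the relative of Dcc that also binds netrins, averaged 10.81 ± 0.12 in adult and 10.71 ± 0.12 in young arteries (SD, n = 4 each) and was not called either (difference 0.10, adjusted p = 0.363).

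The slits moved apart from each other while the Robo receptors lay at or below the array median, or just above it. Slit3 had 12.20, 12.08, 12.09 and 12.11 on the adult arrays and 11.79, 11.82, 11.74 and 11.76 on the young arrays. Every adult value was above every young value, with a difference of 0.34 (SE 0.030, adjusted p = 0.000104), and this call was lost with centring on ribosomal protein genes without paralogues. Slit2 had 7.25, 7.33, 7.33 and 7.23 in adult arteries, against 7.55, 7.52, 7.41 and 7.54 in young arteries, a difference of -0.22 (SE 0.038, adjusted p = 0.00283). Slit1, at 6.98 ± 0.01 in adult and 6.94 ± 0.01 in young arteries, was not called. Robo4, the Robo of endothelial cells, had 7.12 ± 0.02 in adult and 7.36 ± 0.05 in young arteries (SD, n = 4 each) and differed by -0.24 (SE 0.025, adjusted p = 0.000234). Robo1, Robo2 and Robo3 differed by 0.02, 0.00 and 0.00 and were not called. Unc50, which is not a guidance gene, was called higher with a difference of 0.28 (adjusted p = 0.00769) and lost the call when any 1 array other than adult replicate 1 was left out (0.0129 to 0.0233).

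**Figure D3:**
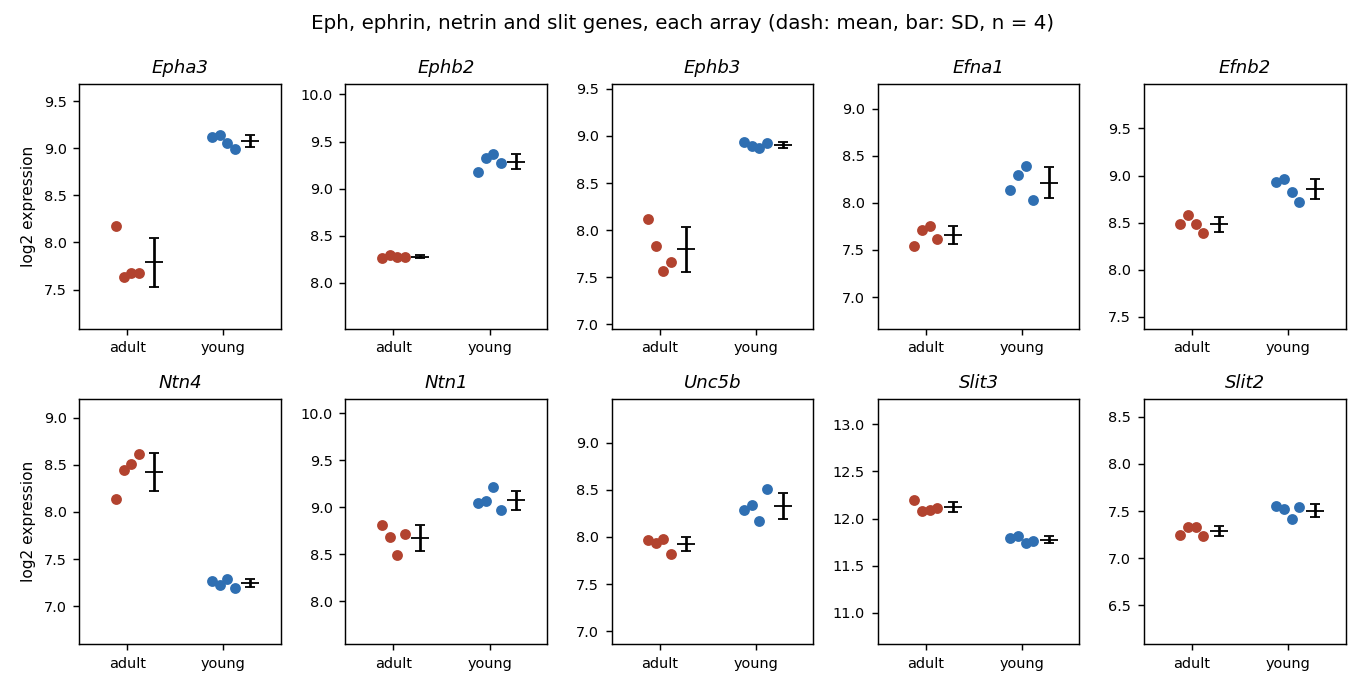
Log2 expression on each array for 3 Eph receptors, 2 ephrins, 2 netrins, Unc5b and 2 slits, with adult arteries (red) left of young arteries (blue). Dashes are means and bars the SD of 4 arrays, and every panel spans the same number of log2 units. Ntn4 and Slit3 are higher in adult arteries, by 1.18 and 0.34, and the other 8 genes are lower.

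Many of the calls concerned small differences, and some of the called genes lay near the bottom of the scale. Of the 42 called genes 28 differed by less than 0.5 (-0.47 to 0.46), and 7 of these by less than 0.1 (-0.08 to 0.06). Small differences were also the majority over all genes, where 6296 were called and only 905 fell and 909 rose by at least 0.5. In 25 of the 66 genes both group means were below the array median of 7.29, and 9 of these were called, with differences of up to 0.184 in size. Over all 19239 genes, 8982 had both means below the median, and 1129 of those were called. The number of genes with a mean above that median was 33 in adult and 39 in young arteries. Leaving out each array in turn, 33 of the 42 calls held in all 8 fits, 28 of them lower and 5 higher, and these included the 13 large falls and Ntn4. When arrays were centred on ribosomal protein genes, 18 calls were lost, all of differences below 0.3 in size, among them Epha4, Robo4, Plxna3, Sema7a and Slit2. With the 27 rows of such genes without paralogues 21 were lost, now with Plxnb1, Slit3 and Unc50. Each centring moved all genes of an array by 1 amount, so a lost call here need not mean a smaller difference. With the first, the rises of Ephb6, Sema4a and Sema4g grew to 0.09, 0.10 and 0.20 as their calls were lost. The falls lost there became smaller, with Epha4 at -0.21, whereas without paralogues Epha4 lost its call at -0.36. Compression near the floor also bears on the size of the large differences. With the lowest intensity of the table subtracted and an offset of 16 added on the linear scale, the difference was -2.67 for Sema6a, -1.59 for Sema5b, -1.66 for Nrp2, -1.32 for Sema6d, -0.92 for Efna1 and 2.14 for Ntn4, each over 1.5 times the value above.

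**Figure D4:**
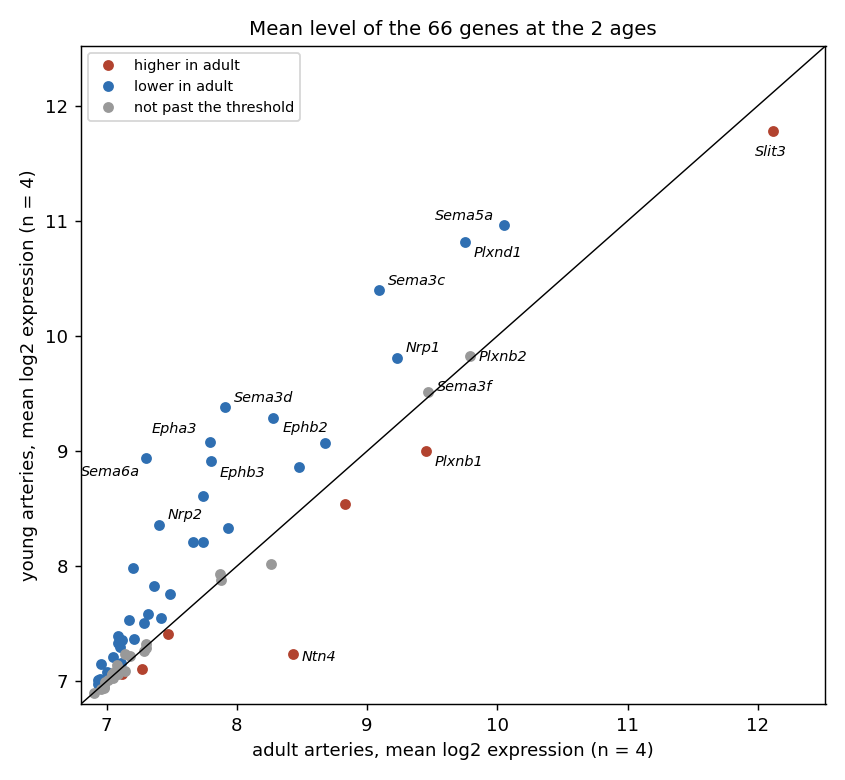
Mean log2 expression of the 66 genes in adult arteries (horizontal axis) and in young arteries (vertical axis), 4 arrays each, with the line of equal level. Points above the line were lower in adult arteries (blue where called, 35 genes), points below it higher (red where called, 7 genes), and grey points (24 genes) passed the threshold in neither direction. A dense cluster lies near the floor around 7, and Ntn4 stands farthest below the line.

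The arrays that lay nearest to the other age were often the same. Among the 13 large falls, young replicate 4 was the lowest young array in 8 genes (Epha3, Efna1, Nrp1, Nrp2, Plxnd1, Sema5b, Sema6a and Sema6d), and adult replicate 1 was the highest adult array in 7 (Epha3, Ephb3, Nrp1, Plxnd1, Sema3c, Sema6a and Sema6d). All 13 kept the call without either array.

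Other genes of the guidance pathway were taken from 3 further lists. Of 18 other ligands and modulators, 5 were lower (27.8%, against 16% of all genes tested) and none was higher in adult arteries (median -0.05). Flrt2, a membrane protein that repels through Unc5 receptors, averaged 8.10 ± 0.12 in adult and 9.13 ± 0.12 in young arteries (SD, n = 4 each), a difference of -1.03 (SE 0.077, adjusted p = 4.64e-05). Cxcl12, a chemokine that attracts cells and axons, differed by -0.86 (SE 0.149, adjusted p = 0.00258), and Reln, the matrix protein reelin that is also in the lymphatic list, by -0.79 (SE 0.067, adjusted p = 8.1e-05). Of 28 other receptors and adhesion molecules, 6 were higher and 4 were lower (median -0.00). These shares, 21.4% and 14.3%, were near those of all genes tested, 16.7% and 16%. The large falls were those of Cdon, a co-receptor of hedgehog proteins, at 8.45 ± 0.21 in adult and 9.77 ± 0.06 in young arteries (difference -1.32, adjusted p = 4.88e-05), and of the neural cell adhesion molecule Ncam1, at 7.39 ± 0.07 in adult and 8.53 ± 0.02 in young arteries (difference -1.14, adjusted p = 1.14e-06).

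Of 64 intracellular effectors of guidance receptors, 24 were lower in adult arteries (37.5%, against 16% of all genes tested) and 12 were higher (18.8%, near the 16.7% of all genes tested), with a median of -0.09. Falls of at least 0.5 that passed the threshold made up 7.81% of the list, against 4.7% of all genes tested. They were those of Mical1 (-0.80), which oxidises actin downstream of plexins, the kinase Fyn (-0.75), Rgs3 (-0.70), which links ephrin-B to G proteins, Arhgef7 (-0.59) and Farp1 (-0.51). Called rises of at least 0.5 were more numerous than such falls, with 7 against 5 of the 64 genes. Over all genes tested 4.72% rose as much. Among the rises of the list were Gnai1 (1.46), Grip2 (0.75), Enah (0.74), Mical2 (0.73) and Rras (0.53). Mical1 averaged 7.75 ± 0.04 in adult and 8.55 ± 0.13 in young arteries (SD, n = 4 each, adjusted p = 4.88e-05), so that genes of the same Mical family lay on both sides.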

How the data were processed

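RNA of 8 saphenous artery samples (4 adult, 4 young) was hybridised to Affymetrix rat gene arrays. Per the labels and methods, the authors applied RMA and quantile normalization with a custom chip definition (version 14), giving 1 row for each Entrez gene. The deposited values run from 6.80 to 13.82 and were taken as log2 expression. Precision is limited by the 8 arrays. Symbols of the platform annotation were updated by Entrez identifier. The test was a linear model per row in limma (version 3.58.1, R 4.3.3) with moderated variances, two-sided, without covariates or a filter, adjusted by Benjamini-Hochberg over 19239 rows at 0.01. The study's analysis of variance was an alternative, beside other variance models, array weights, a filter on dim rows, 2 centrings on ribosomal protein genes, background subtraction, a replicate block, left-out arrays and other thresholds. The code was tested on simulated data. The gene set and lists were chosen with earlier results of these data known. Values on each array are given for genes called with at least 0.5 and, chosen after their values were seen, for Sema3b, Sema3f, Efnb2, Ntn1, Unc5b, Slit2, Slit3 and Plxna1. Genes of other guidance lists were named where called with at least 0.5, at most 6 per direction, except 1 that is not reported here, and Neo1 was added after its values were seen. Neighbouring genes were counted in the RefSeq table of GRCr8.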

Additional observations from a re-analysis of the deposited data

Results flagged for a closer look

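In each gene and age, the most extreme of the 4 arrays was compared with the others by Dixon's ratio of gap to range. This set apart 3 of 132 groups (2.27%), where chance sets apart about 1 in 20. Epha3 had 8.17 in adult replicate 1, against 7.63 to 7.68 on the other adult arrays. Sema5a had 11.18 in young replicate 2, against 10.86 to 10.91 on the other young arrays. Epha8 had 7.02 in young replicate 3, against 7.05 to 7.06 on the other young arrays, close to the lowest values of the table. Epha3 and Sema5a were called lower in adult arteries with each of these arrays left out.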

How the results depend on the processing

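Of the 66 genes, 35 were called lower and 7 higher in adult arteries with all arrays. Without 1 array the counts were 28 to 34 lower and 5 to 7 higher. With a fold of at least 1.5 required, 11 were lower and 1 higher. With arrays centred on 39 ribosomal protein rows, 20 were lower and 5 higher. With 27 such rows without paralogues, a choice made after seeing the data, 20 were lower and 1 higher. This last centring moved the median difference of all rows to -0.114, and the share of higher calls over all rows was 32.2% (926 higher, 1948 lower), against 51.1% without it. Over the 66 genes the share of higher calls was then 4.76%, against 16.7%. With the replicate block 23 were lower and 4 higher, and 27 of the 42 calls were kept. Nrp1 lost its call there (adjusted p = 0.0148), the one loss among the 13 large falls and Ntn4 under the alternatives run, apart from the minimum fold, which left out Nrp1 and Efna1. The numbers did not pair the samples, since deviations of same-numbered arrays correlated at -0.082, -0.035, 0.04 and 0.009. The analysis of variance gave 32 lower and 6 higher. The cause of these changes was not tested. Differences that changed sign were all below 0.1 in size as deposited. With ribosomal centring they were those of Plxna2 (0.031), Epha5 (0.033), Epha8 (0.025), Plxnc1 (0.019), Ntn5 (0.018) and Efna4 (0.012). With the centring without paralogues the called genes Sema4a (-0.053) and Ephb6 (-0.062) turned, as did the uncalled Unc5a (-0.069), Sema3e (-0.080), Slit1 (-0.082), Epha10 (-0.084), Epha6 (-0.088), Sema4f (-0.090), Robo1 (-0.097), Efnb3 (-0.109), Epha1 (-0.112), Robo2 (-0.112) and Robo3 (-0.114). Without 1 array the sign changed in uncalled genes alone, with ranges of -0.097 to 0.016 for Sema3f, -0.039 to 0.037 for Plxna2, -0.011 to 0.006 for Epha5, -0.003 to 0.012 for Robo2, -0.003 to 0.011 for Epha1 and -0.002 to 0.004 for Robo3. Signal near the floor limits 25 genes whose means lay below the array median at both ages.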
